A study of Mus musculus with 12 samples.

Results

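RNA levels of 8 proteasome genes, the inducible subunits of the immunoproteasome beside the constitutive catalytic subunits they stand in for, were followed in mouse brain. The 8 genes were taken by symbol from a table of 16482 usable genes, and 8 of 8 had enough counts to be tested. They comprise 5 inducible genes (Psmb8, Psmb9, Psmb10, Psme1 and Psme2) and 3 constitutive ones (Psmb5, Psmb6 and Psmb7).

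The proteasome is the barrel-shaped protease complex that degrades ubiquitin-tagged proteins. Its 20S core carries a trypsin-like, a caspase-like and a chymotrypsin-like activity, provided in most cells by the constitutive subunits Psmb7, Psmb6 and Psmb5. Under interferon the inducible subunits Psmb10, Psmb9 and Psmb8 are made and built into new cores in place of these partners, which gives the immunoproteasome. Its cleavage pattern favours peptides that fit MHC class I molecules. Psme1 and Psme2 encode the alpha and beta subunits of PA28, a ring-shaped activator that caps the core without ATP and is also induced by interferon gamma. In the healthy brain the immunoproteasome is known to be sparse, and microglia are among the cells that make it in inflammation.

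The samples were whole brains of C57BL/6 mice, with 4 samples in each of 3 groups. The CBE+GZ-667161 group received conduritol B epoxide (CBE) together with GZ-667161 and was of postnatal day 40. The CBE group received CBE, with replicates 2 and 3 of day 34 and replicates 4 and 6 of day 40. The PBS group received phosphate-buffered saline and was of day 40. CBE irreversibly inhibits acid beta-glucosidase, the lysosomal enzyme that is deficient in Gaucher disease, so its substrate glucosylceramide builds up. GZ-667161 inhibits the synthase that makes glucosylceramide. CBE is a chemical model and leaves the gene of the enzyme intact, and the CBE+GZ-667161 group received both agents, so the effect of GZ-667161 by itself was not analysed here. Whether each sample was a separate animal is not stated in the labels. The p-values therefore rest on sample-to-sample spread, part of which may be technical.

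RNA was measured as 3' tags with a bulk form of MARS-seq. Total counts ran from 2217976 to 4917330 in CBE+GZ-667161 samples, from 1758446 to 3051435 in CBE samples and from 2423380 to 6521257 in PBS samples. Levels are given in CPM, counts divided by a library size that TMM scaling aligns on the bulk of the genes. Values are listed in the order of the replicate numbers, which are 2, 3, 4 and 5 for CBE+GZ-667161, 2, 3, 4 and 6 for CBE, and 2, 3, 4 and 5 for PBS. A 3' tag count is not a level per transcript length, so levels of different genes were not ranked against each other. A gene was called where edgeR's quasi-likelihood test gave a Benjamini-Hochberg adjusted p under 0.05 over all 12623 tested genes. Fold changes are log2 values with their standard error (SE).

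The genes lie in several places of the mouse genome (mm10, GENCODE). Psmb8 (chr17:34197721-34201454, plus strand) and Psmb9 (chr17:34181987-34187764, minus strand) lie in the MHC region, beside Tap1 and Tap2, the partner subunits of the transporter that moves peptides into the endoplasmic reticulum. Psme1 (chr14:55578123-55581529, plus strand) and Psme2 (chr14:55587441-55591113, minus strand) are neighbours on chromosome 14, which also carries Psmb5 (chr14:54614119-54618022, minus strand). Psmb10 is at chr8:105935735-105938444 on the minus strand. Psmb6 is at chr11:70525367-70527858 on the plus strand. Psmb7 is at chr2:38588036-38644087 on the minus strand. All 8 are annotated as protein coding. The exons of some share bases with genes on the opposite strand, 498 bases for Psmb8 with the antisense gene Gm20496, 212 for Psmb9 with Tap1 and 14 for Psme1 with Emc9. The shared bases of Psmb8 and Psmb9 lie away from the annotated 3' end of the gene, and those of Psme1 lie at it. Psmb7 shares exon bases with Nek6, also on the opposite strand, in part at its 3' end. The sources used here do not say whether counting used the strand, so counts are uncertain where tags fall in shared bases.

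RefSeq promoter windows (GRCm38.p6), from 250 bases before to 50 bases after the start used for each window, were found for 7 of the 8 genes. They were searched on both strands for the core of the interferon-stimulated response element (GAAANNGAA), which interferon regulatory factors bind, and the core of the gamma-activated site (TTCNNNGAA), which STAT dimers bind. The windows of Psmb8 and Psme1, which each held one match, are shown with that of Psmb5, the constitutive partner of Psmb8, which held none. Capitals mark the match. The windows are at chr17:34197945-34198244 (plus strand) for Psmb8, chr14:55578244-55578543 (plus strand) for Psme1 and chr14:54617946-54618245 (minus strand) for Psmb5.
Psmb8 promoter: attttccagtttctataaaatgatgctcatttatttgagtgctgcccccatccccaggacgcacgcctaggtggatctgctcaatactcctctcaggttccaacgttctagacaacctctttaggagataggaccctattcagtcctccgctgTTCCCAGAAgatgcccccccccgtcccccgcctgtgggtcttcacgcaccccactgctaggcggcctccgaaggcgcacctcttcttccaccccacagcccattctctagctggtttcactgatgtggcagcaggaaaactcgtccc
Psme1 promoter: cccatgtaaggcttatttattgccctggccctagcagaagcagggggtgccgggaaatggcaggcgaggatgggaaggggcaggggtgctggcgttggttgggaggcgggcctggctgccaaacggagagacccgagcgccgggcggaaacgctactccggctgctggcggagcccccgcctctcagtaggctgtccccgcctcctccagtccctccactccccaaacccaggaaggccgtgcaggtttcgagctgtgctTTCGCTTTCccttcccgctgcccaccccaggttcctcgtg
Psmb5 promoter: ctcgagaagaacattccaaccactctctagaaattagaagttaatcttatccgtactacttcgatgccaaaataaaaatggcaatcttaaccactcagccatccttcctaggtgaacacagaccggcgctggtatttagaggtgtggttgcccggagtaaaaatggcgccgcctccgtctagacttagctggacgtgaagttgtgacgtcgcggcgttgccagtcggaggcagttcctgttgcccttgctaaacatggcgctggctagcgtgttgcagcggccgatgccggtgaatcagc
The Psmb8 match was a gamma-activated site core at bases 154 to 162 of its window. The Psme1 match was a response element core read on the other strand, at bases 261 to 269. Neither set of letters was in the windows of Psmb9, Psmb10, Psme2, Psmb5 and Psmb6, and the matches that were found did not overlap. Of 32851 promoter windows of this length, 8.56% held the response element core and 8.30% held the gamma-activated site core. A match describes these letters and is neither a binding site nor a cause.

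The comparison of CBE with PBS addresses what CBE treatment does to brain RNA. All 5 inducible genes rose in CBE brains and none of the 3 constitutive genes was called. Psmb8 changed most, to 7.49-fold the PBS level, followed by Psmb9 at 3.90-fold, Psme1 at 2.02-fold, Psme2 at 1.84-fold and Psmb10 at 1.51-fold. Over all tested genes 6.95% were called higher in this comparison, and 8.61% had CBE samples that all lay above all PBS samples. The median log2 fold change was 1.01 over the 5 inducible genes and 0.12 over the 3 constitutive genes, against -0.015 over all tested genes.

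Most markers of microglia moved with the inducible genes, and 7 of 9 were called higher in each comparison with PBS. Their summed level was 1705, 2453, 2326 and 3015 CPM in CBE+GZ-667161 and 3506, 4272, 2829 and 2792 CPM in CBE, against 859.6, 917, 872 and 824 CPM in PBS brains, with 9 of 9 detected in each group. P2ry12 overlapped between groups, at 15.1 to 28.4 CPM in CBE+GZ-667161, 8.75 to 31.1 CPM in CBE and 16.4 to 23.5 CPM in PBS brains. The complement genes C1qa, C1qb and C1qc supplied most of these sums, with 930 to 1502, 867 to 1162 and 405 to 550 CPM in CBE brains. Replicate 2 of CBE+GZ-667161 had both the lowest of these sums and the lowest Psmb8 among the treated samples. Within the CBE group the lowest values fell in different samples. Replicate 6 of CBE had the lowest sum, 2792 CPM, with Psmb8 at 118 CPM. Replicate 4 of CBE had the lowest Psmb8, 73.9 CPM, with a sum of 2829 CPM. Whether Psmb8 followed these sums was not tested. Of 5 astrocyte markers 1 was called higher in CBE+GZ-667161 and 4 in CBE, each against PBS. Over all tested genes 3.11% were called higher in CBE+GZ-667161 and 6.95% in CBE, each against PBS. Against CBE, 1 of 9 microglia and 2 of 5 astrocyte markers were called lower in CBE+GZ-667161, beside 0.832% of all tested genes. The summed level of the 5 astrocyte markers was 763 to 1225 CPM in CBE+GZ-667161, 1281 to 1778 CPM in CBE and 509 to 558 CPM in PBS brains. Gfap alone was at 281 to 600 CPM, 605 to 1024 CPM and 59.1 to 110 CPM in the same order. Gja1 overlapped, at 46.0 to 74.9 CPM in CBE and 43.1 to 59.4 CPM in PBS brains. The part of these cell types in the result was not tested, and in bulk tissue more cells of a type and more RNA per cell cannot be told apart.

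Psmb8, the chymotrypsin-like subunit of the immunoproteasome, had 115, 145, 73.9 and 118 CPM in CBE brains, against 15.9, 18.7, 9.63 and 14.5 CPM in PBS brains. The lowest CBE sample, replicate 4, lay well above the highest PBS sample. Its log2 fold change was 2.90 ± 0.22 (SE; edgeR adjusted p = 1.90e-07), rank 102 of 12623 by fold. Psmb9, the inducible partner of Psmb6, had 22.6, 16.7, 10.2 and 13.2 CPM in CBE brains, against 3.97, 4.25, 5.03 and 2.92 CPM in PBS brains. The groups did not overlap, although the counts behind them were few, at 29 to 42 in CBE and 12 to 20 in PBS samples. Its log2 fold change was 1.96 ± 0.33 (SE; edgeR adjusted p = 0.000694). Psmb10, the trypsin-like inducible subunit, had 234, 227, 203 and 209.6 CPM in CBE brains, against 142, 145, 154 and 137 CPM in PBS brains. Its rise was the smallest of the 5 in fold, yet the groups did not overlap, and the log2 fold change was 0.60 ± 0.12 (SE; edgeR adjusted p = 0.00324).

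Both genes of the PA28 activator rose in CBE brains. Psme1 had 202, 265, 197 and 169 CPM in CBE brains, against 90.2, 119.6, 96.8 and 104 CPM in PBS brains, and its log2 fold change was 1.01 ± 0.17 (SE; edgeR adjusted p = 0.000645). Psme2 had 101, 102, 80.5 and 85.8 CPM in CBE brains, against 54.8, 48.7, 46.1 and 50.1 CPM in PBS brains, and its log2 fold change was 0.88 ± 0.13 (SE; edgeR adjusted p = 0.000172). For both genes every CBE sample lay above every PBS sample. Psme2b, a copy of Psme2 at chr11:48945354-48946190, matches the Psme2 transcript at 789 of 794 aligned bases, so reads may have been split between them. Psme2b itself averaged 9.45 ± 4.79 CPM in CBE and 3.60 ± 0.98 CPM in PBS brains (SD, n = 4 each), and was 1.41 ± 0.36 higher in CBE on the log2 scale (SE; edgeR adjusted p = 0.0181).

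**Figure D1:**
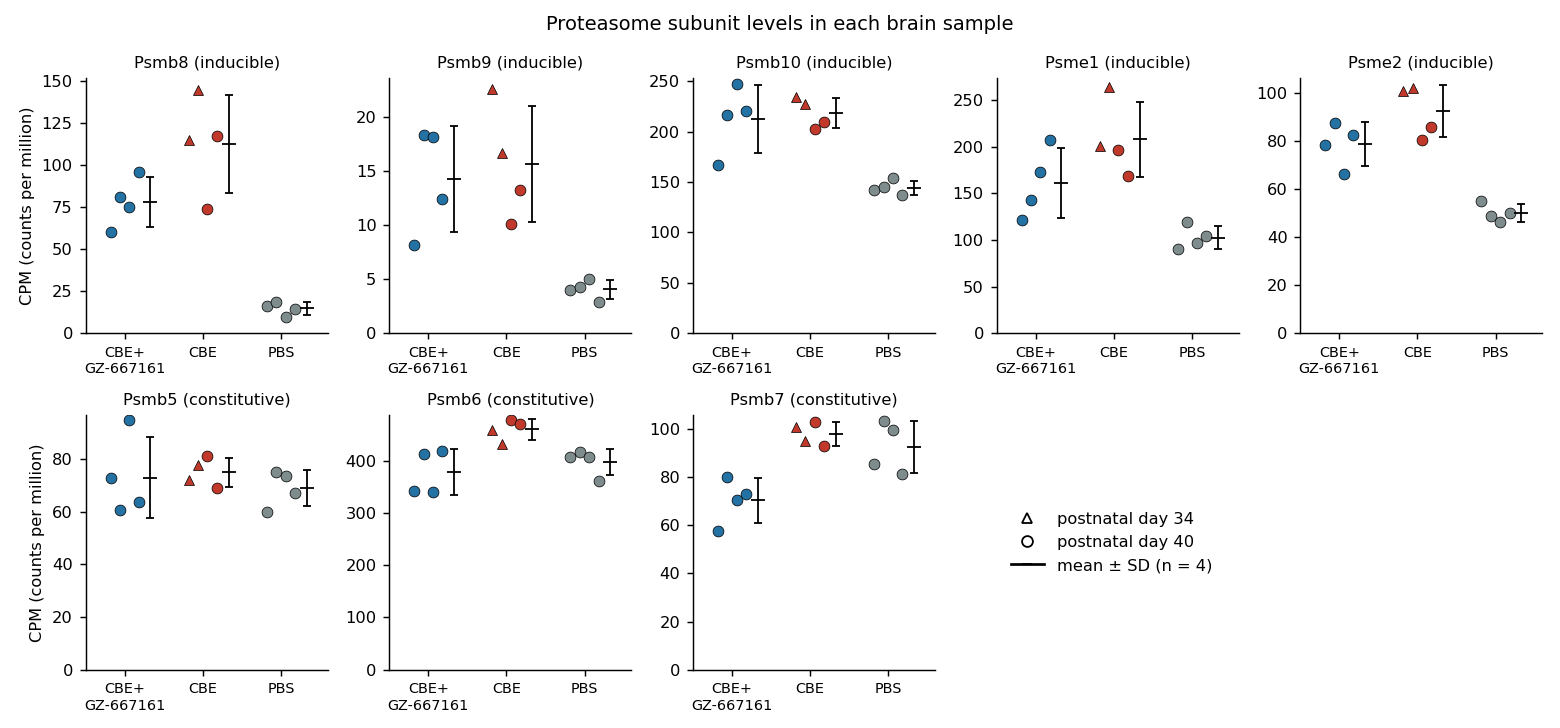
Level of each of the 8 genes in every brain sample, in CPM on axes that start at 0, for CBE+GZ-667161, CBE and PBS. Triangles are samples of day 34, circles are samples of day 40, and bars give mean ± SD (n = 4). In the 5 inducible panels every CBE and CBE+GZ-667161 sample lies above every PBS sample, and Psmb7 is lowest in CBE+GZ-667161.

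The constitutive partners did not pass the test between CBE and PBS. Psmb5, the chymotrypsin-like subunit that Psmb8 replaces, had 72.2, 77.8, 81.2 and 68.9 CPM in CBE brains, against 60.1, 74.9, 73.7 and 67.2 CPM in PBS brains. These values overlapped, and the log2 fold change was 0.12 with a 95% interval of -0.18 to 0.43 (edgeR adjusted p = 0.650). Psmb6, the caspase-like subunit that Psmb9 replaces, had 459, 433, 478 and 469.5 CPM in CBE brains, against 406, 417, 408 and 362 CPM in PBS brains. The samples did not overlap, but the log2 fold change was 0.21 with an interval of -0.0072 to 0.43 (edgeR adjusted p = 0.219). Psmb7, the trypsin-like subunit that Psmb10 replaces, had 101, 94.98, 103 and 92.7 CPM in CBE brains, against 85.5, 103, 99.7 and 81.4 CPM in PBS brains. Its log2 fold change was 0.084 with an interval of -0.18 to 0.35 (edgeR adjusted p = 0.727). The intervals leave room for a rise of up to 0.43 on the log2 scale.

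In CBE+GZ-667161 brains the 5 inducible genes also rose relative to PBS and the 3 constitutive genes were again not called. Psmb8 stood at 5.18-fold the PBS level, Psmb9 at 3.66-fold, Psme2 at 1.57-fold, Psme1 at 1.56-fold and Psmb10 at 1.48-fold. Of all tested genes 3.11% were called higher here, 6.65% had all CBE+GZ-667161 samples above all PBS samples, and 3.12% had them all below. This comparison and that of CBE with PBS share the PBS samples, so they are not independent of each other. The median log2 fold change was 0.65 over the inducible and -0.076 over the constitutive genes, against -0.00024 over all tested genes.

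Psmb8 had 60.4, 81.2, 74.9 and 95.8 CPM in CBE+GZ-667161 brains, all above the PBS values, 2.37 ± 0.22 higher on the log2 scale (SE; edgeR adjusted p = 3.78e-06). For Psmb9 the CBE+GZ-667161 values were 8.18, 18.4, 18.2 and 12.5 CPM, and the log2 fold change over PBS was 1.87 ± 0.32 (SE; edgeR adjusted p = 0.00153). Psmb10 had 167, 217, 247 and 221 CPM in CBE+GZ-667161 brains, 0.56 ± 0.12 above PBS on the log2 scale (SE; edgeR adjusted p = 0.0101). For these 3 genes and for Psme1, replicate 2 was the lowest of the CBE+GZ-667161 samples, still above every PBS sample. Psme2 had 78.4, 87.5, 66.3 and 82.4 CPM in CBE+GZ-667161 brains, with a log2 fold change over PBS of 0.65 ± 0.13 (SE; edgeR adjusted p = 0.00477). Psme1 had 121, 143, 173 and 208 CPM in CBE+GZ-667161 brains, its lowest sample close to the highest PBS sample. It was 0.64 ± 0.17 above PBS on the log2 scale (SE), near the threshold (edgeR adjusted p = 0.0416). The call on Psme1 was lost in 9 of 19 alternatives, with adjusted p between 0.0522 and 0.155, namely with limma-voom or when 1 of these libraries was left out: replicates 3, 4 and 5 of CBE+GZ-667161, 2 and 4 of CBE, and 2, 4 and 5 of PBS.

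Among the constitutive genes Psmb5 had 72.7, 60.6, 94.8 and 63.7 CPM in CBE+GZ-667161 brains, within or around the PBS range (log2 fold change 0.087, interval -0.21 to 0.39, edgeR adjusted p = 0.886). Psmb6 had 341, 412, 339 and 419 CPM there (log2 fold change -0.076, interval -0.29 to 0.14, edgeR adjusted p = 0.860). Psmb7 had 57.7, 80.1, 70.3 and 73.1 CPM there, below every PBS sample. Its log2 fold change over PBS was -0.39 with an interval of -0.66 to -0.13, which missed the threshold after adjustment (edgeR adjusted p = 0.116).

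**Figure D2:**
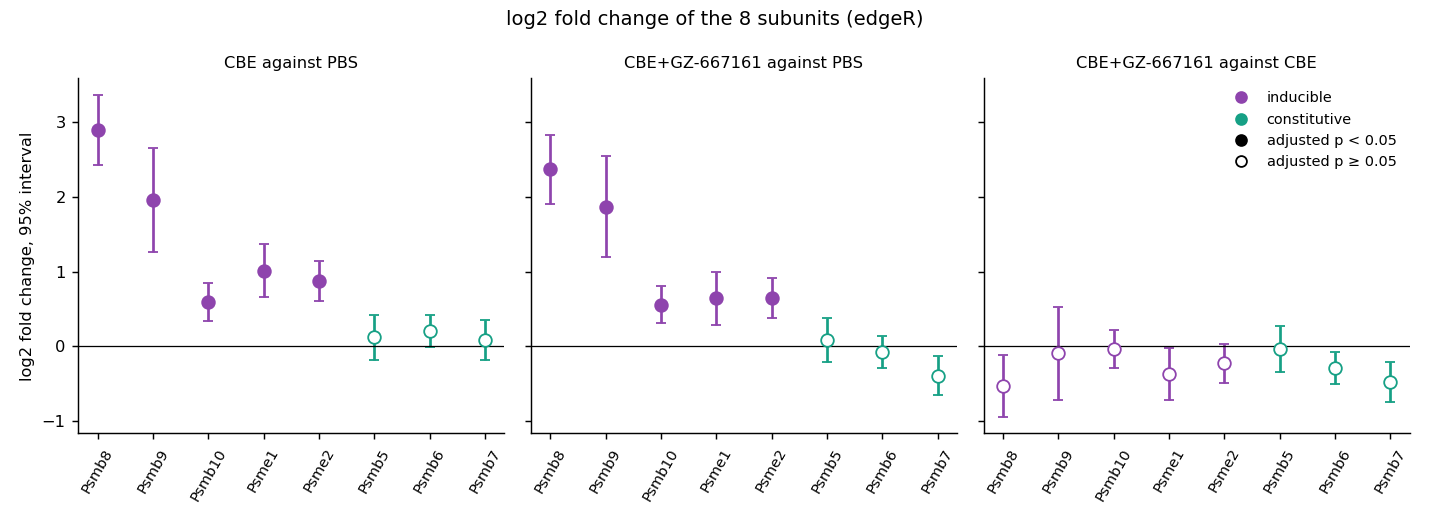
The log2 fold change of each gene (vertical axis) with its 95% interval in the 3 comparisons, from edgeR, with inducible genes in purple and constitutive genes in green. Filled points have an adjusted p under 0.05. The 5 inducible genes are filled in both comparisons with PBS, and no gene is filled for CBE+GZ-667161 against CBE.

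The comparison of CBE+GZ-667161 with CBE addresses what was different in CBE brains when synthesis of the lipid was also inhibited. None of the 8 genes was called by edgeR, against 0.832% of all tested genes called lower and 1.28% called in either direction. An unadjusted p under 0.05 was reached by 4 of the 8, against 16.5% of all tested genes. Psmb8 had the largest difference among the inducible genes, with a mean of 78.1 ± 14.7 CPM in CBE+GZ-667161 and 113 ± 29.3 CPM in CBE brains (SD, n = 4 each). The samples overlapped, and the log2 fold change was -0.53 with an interval of -0.95 to -0.11 (edgeR adjusted p = 0.189). Psme1 differed by -0.37 (interval -0.72 to -0.018, edgeR adjusted p = 0.276) and Psme2 by -0.23 (interval -0.49 to 0.037, edgeR adjusted p = 0.380) on the log2 scale. Psmb9 differed by -0.094 (interval -0.72 to 0.53, edgeR adjusted p = 0.910) and Psmb10 by -0.037 (interval -0.29 to 0.21, edgeR adjusted p = 0.911). The interval of Psmb9 is wide and leaves room for a difference in either direction.

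Psmb6 and Psmb7 were lower in each CBE+GZ-667161 sample than in each CBE sample, as were 3.98% of all tested genes. Psmb7 averaged 70.3 ± 9.36 CPM in CBE+GZ-667161 and 97.9 ± 4.80 CPM in CBE brains (SD, n = 4 each), with a log2 fold change of -0.48 and an interval of -0.74 to -0.21. It missed the threshold with edgeR (adjusted p = 0.0678) and passed it with DESeq2 (adjusted p = 0.0186). The log2 fold change of Psmb6 was -0.28 (interval -0.50 to -0.068, edgeR adjusted p = 0.176), and that of Psmb5 was -0.035 (interval -0.34 to 0.27, edgeR adjusted p = 0.933). The exons of Psmb7 share 405 bases with Nek6 on the opposite strand, a gene for a mitotic kinase. Nek6 averaged 26.2 ± 6.66 CPM in CBE+GZ-667161, 36.9 ± 7.49 CPM in CBE and 17.4 ± 2.02 CPM in PBS brains (SD, n = 4 each). Reads of Psmb7 and Nek6 may therefore not have been told apart.

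In the authors' deposited table, where log2 fold changes run opposite to those above with PBS over CBE, Psmb8 had -2.91 with an adjusted p of 3.38e-37. In the authors' deposited table the 5 inducible genes had an adjusted p under 0.05 in both comparisons with PBS and the 3 constitutive genes in neither. For Psmb7, the authors' deposited table gives CBE over CBE+GZ-667161 as 0.48 with an adjusted p of 0.0913.

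For each catalytic position the count of the inducible gene was divided by that of its constitutive partner within the same sample, after adding 0.5 to both. Library size cancels in this ratio. Its absolute size depends on how well each 3' end is captured, so groups were compared within a ratio and ratios were not compared with each other. Tests were exact two-sided permutation tests of 4 against 4 samples, which cannot give a p below 0.0286, with adjustment over 9 tests.

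The ratio of Psmb8 to Psmb5 was 0.832, 1.34, 0.791 and 1.502 in CBE+GZ-667161 brains and 1.59, 1.86, 0.910 and 1.71 in CBE brains, against 0.266, 0.251, 0.133 and 0.216 in PBS brains. The treated groups overlapped each other and neither overlapped PBS. The log2 ratio was higher than in PBS by 2.36 ± 0.33 in CBE+GZ-667161 and by 2.81 ± 0.33 in CBE (SE, n = 4 each; exact permutation p = 0.0286 and adjusted p = 0.0367 for both). CBE+GZ-667161 and CBE differed by -0.45 ± 0.33 (SE, n = 4 each; exact permutation p = 0.171).

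The ratio of Psmb9 to Psmb6 was 0.0243, 0.0449, 0.0540 and 0.0303 in CBE+GZ-667161 brains and 0.0499, 0.0391, 0.0216 and 0.0286 in CBE brains, against 0.0101, 0.0105, 0.0128 and 0.00829 in PBS brains. Its log2 value was above PBS by 1.83 ± 0.29 in CBE+GZ-667161 and by 1.69 ± 0.29 in CBE (SE, n = 4 each; exact permutation p = 0.0286 and adjusted p = 0.0367 for both). The treated groups overlapped and differed by 0.14 ± 0.37 (SE, n = 4 each; exact permutation p = 0.686).

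The ratio of Psmb10 to Psmb7 was 2.88, 2.70, 3.51 and 3.01 in CBE+GZ-667161 brains and 2.32, 2.39, 1.97 and 2.26 in CBE brains, against 1.66, 1.40, 1.54 and 1.68 in PBS brains. Here no group overlapped another, with CBE+GZ-667161 highest and PBS lowest. The log2 ratio was above PBS by 0.94 ± 0.10 in CBE+GZ-667161 and by 0.51 ± 0.087 in CBE, and above CBE by 0.44 ± 0.10 in CBE+GZ-667161 (SE, n = 4 each; exact permutation p = 0.0286 and adjusted p = 0.0367 in each case). Between CBE+GZ-667161 and CBE the level of Psmb10 differed by -0.037 and that of Psmb7 by -0.48 on the log2 scale. Psmb7 is the denominator of this ratio and shares exon bases with Nek6, in part at its 3' end.

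**Figure D3:**
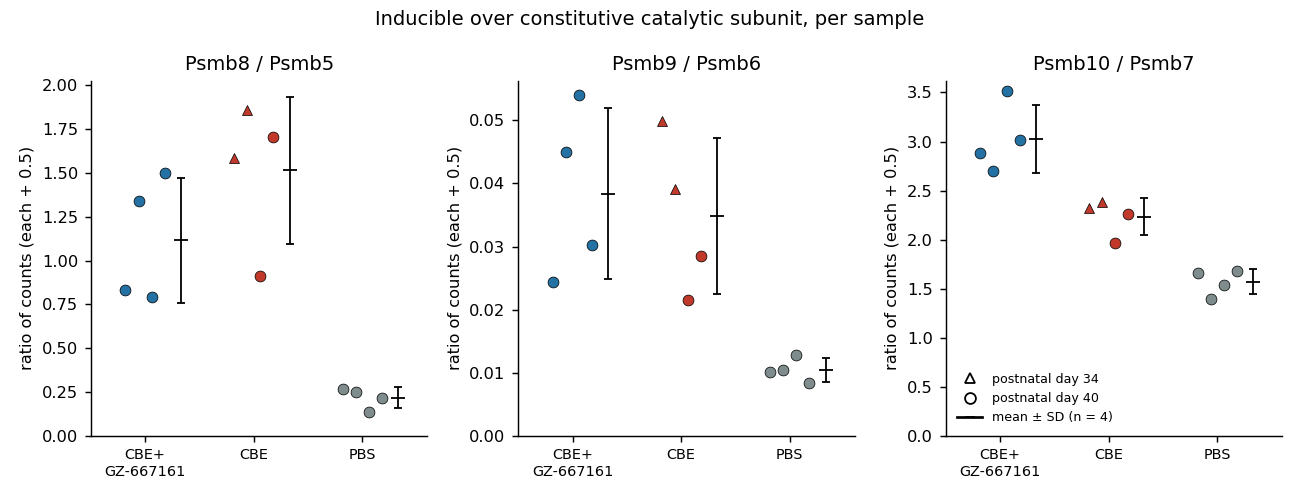
Ratio of inducible to constitutive counts (each plus 0.5) in every sample for the 3 catalytic positions, on axes that start at 0, with mean ± SD (n = 4). Triangles are day 34 and circles day 40. The PBS samples lie below all others in each panel, and for Psmb10 over Psmb7 the CBE+GZ-667161 samples lie above the CBE samples.

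Age differed within the CBE group. Psmb9 averaged 11.7 CPM in the 2 CBE brains of day 40 and 19.6 CPM in the 2 of day 34. Psme1 averaged 183 CPM at day 40 and 233 CPM at day 34, and Psmb8 averaged 95.7 CPM at day 40 and 130 CPM at day 34. For 4 of the 5 inducible genes both samples of day 40 lay below both of day 34, as did 23.5% of all tested genes. None of the 8 genes was called by edgeR, DESeq2 or limma-voom in a fit that separated the ages, none had in edgeR an unadjusted p under 0.05 (15.1% of all tested genes did), and 0.389% of all tested genes were called lower at day 40. The log2 fold changes of day 40 over day 34 ran from -0.77 to -0.19 over the inducible genes and from -0.027 to 0.063 over the constitutive genes.

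In a further fit the CBE samples of day 34 were left out, so that every sample was of day 40. The 5 inducible genes were still called higher in CBE than in PBS, beside 7.67% of all tested genes. The log2 fold changes were then 2.67 ± 0.24 for Psmb8, 1.57 ± 0.36 for Psmb9, 0.83 ± 0.19 for Psme1, 0.73 ± 0.14 for Psme2 and 0.51 ± 0.15 for Psmb10 (SE; edgeR adjusted p between 6.56e-06 and 0.0322). At day 40 alone, CBE+GZ-667161 differed from CBE by -0.30 (interval -0.79 to 0.19) for Psmb8 and by -0.47 (interval -0.81 to -0.14) for Psmb7 on the log2 scale. Neither was called in that fit (edgeR adjusted p = 0.488 for Psmb8 and 0.0941 for Psmb7).

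Other genes of the proteasome were tested in 4 lists. In CBE against PBS 1 of 11, 0 of 19, 1 of 11 and 0 of 6 of their genes were called, all higher, beside the 6.95% of all tested genes called higher. An unadjusted p under 0.05 was reached by 2, 3, 4 and 2 of them, beside 24.8% of all tested genes. Of the 11 other 20S subunits tested, Psmb3, a beta subunit without catalytic activity, was called higher in CBE than in PBS, with a median log2 fold change of 0.17 over the list. Psmb3 averaged 126 CPM in CBE and 97.6 CPM in PBS brains (log2 fold change 0.37 ± 0.11 SE, edgeR adjusted p = 0.0455), and the call was lost in 14 of 21 alternatives, with adjusted p between 0.0502 and 0.416. Of 19 genes of the 19S particle, the cap that unfolds ubiquitin-tagged proteins, none was called in CBE against PBS. Psmc3, the member with the highest mean count, differed by -0.19 ± 0.13 (SE, edgeR adjusted p = 0.403). Of 11 activators, inhibitors and assembly chaperones, Psmg4, an assembly chaperone, was called higher, at 67.0 CPM in CBE and 43.1 CPM in PBS brains (log2 fold change 0.63 ± 0.18 SE, edgeR adjusted p = 0.0294). The call on Psmg4 was lost in 5 of 21 alternatives, with adjusted p between 0.0663 and 0.256, namely without the CBE samples of day 40 or when 1 of these libraries was left out: replicates 4 and 6 of CBE, and 2 and 4 of PBS. The last list held 6 genes grouped as regulators of the proteasome or its genes (Nfe2l1, Nfe2l2, Ddi2, Ngly1, Usp14 and Uchl5). None of the 6 was called and 2, Nfe2l2 and Ngly1, had an unadjusted p under 0.05. Nfe2l1, the transcription factor behind the bounce-back response to proteasome inhibition, had an edgeR adjusted p of 0.455 (log2 fold change -0.13 ± 0.098 SE).

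With all samples in the fit, none of the genes in these 4 lists was called in CBE+GZ-667161 against PBS or against CBE. Psmb4 differed from PBS by -0.078 (edgeR adjusted p = 0.869) and from CBE by -0.25 (edgeR adjusted p = 0.283) on the log2 scale. Without the CBE samples of day 34, Psmb4 was called lower in CBE+GZ-667161 than in CBE, by -0.42 on the log2 scale (edgeR adjusted p = 0.0479). So were 2.67% of all tested genes in the fit without those samples. At an unadjusted p under 0.05 stood 1 activator or chaperone and 1 regulator against PBS, beside 13.1% of all tested genes, and 3, 3, 3 and 1 genes of the 4 lists against CBE, beside 16.5% of all tested genes. Pomp, the maturation factor needed to assemble new cores, differed from PBS by 0.052 (edgeR adjusted p = 0.920) and from CBE by 0.079 (edgeR adjusted p = 0.779). Over the 11 other 20S subunits the median log2 fold change against CBE was -0.25, close to the -0.28 of the constitutive genes, against 0.0080 over all tested genes.

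The immunoproteasome supplies peptides to the class I pathway. Of 12 genes of that pathway 7 were called higher in CBE than in PBS (B2m, H2-D1, H2-K1, Nlrc5, Tap1, Tap2 and Tapbp). The median log2 fold change over the 12 was 1.61. The same 7 were called higher in CBE+GZ-667161 against PBS. Of all tested genes 6.95% were called higher in CBE and 3.11% in CBE+GZ-667161, each against PBS. H2-K1, a class I heavy chain, averaged 309.6 CPM in CBE+GZ-667161, 402 CPM in CBE and 58.8 CPM in PBS brains. H2-D1, the other classical heavy chain of this strain, averaged 391 CPM in CBE+GZ-667161, 457 CPM in CBE and 77.5 CPM in PBS brains. B2m, the light chain, averaged 404 CPM in CBE+GZ-667161, 629 CPM in CBE and 114 CPM in PBS brains. Against PBS these 3 had log2 fold changes of 2.38, 2.33 and 1.83 in CBE+GZ-667161 and of 2.76, 2.56 and 2.46 in CBE, in that order (edgeR adjusted p at most 1.72e-05). Tap1, which lies between Psmb9 and Psmb8, averaged 36.5 ± 10.7 CPM in CBE+GZ-667161, 62.0 ± 18.4 CPM in CBE and 7.23 ± 1.69 CPM in PBS brains (SD, n = 4 each). Calr, a chaperone of the same pathway, did not pass, at 815 CPM in CBE+GZ-667161 and 638 CPM in CBE brains (log2 fold change 0.35 ± 0.13 SE, edgeR adjusted p = 0.167). Without the CBE samples of day 34 it was called higher in CBE+GZ-667161 than in CBE, by 0.55 on the log2 scale (edgeR adjusted p = 0.0350). So were 2.42% of all tested genes in that fit.

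Of 13 genes of interferon signalling 8 were called higher in CBE and 7 in CBE+GZ-667161, each against PBS, beside 6.95% and 3.11% of all tested genes. Irf7, a regulator of the type I response, averaged 148 CPM in CBE+GZ-667161, 205 CPM in CBE and 12.01 CPM in PBS brains. Irf8, a myeloid factor, averaged 35.8 CPM in CBE+GZ-667161, 44.4 CPM in CBE and 8.07 CPM in PBS brains. The log2 fold changes over PBS of Irf7 and Irf8 were 3.59 and 2.13 in CBE+GZ-667161 and 4.06 and 2.46 in CBE (edgeR adjusted p at most 1.36e-05). All 4 tested genes of the ISG15 pathway, which conjugates a ubiquitin-like modifier, were called higher in both comparisons with PBS. Isg15, the modifier, averaged 165 CPM in CBE+GZ-667161, 175 CPM in CBE and 16.2 CPM in PBS brains. Usp18, which removes it, averaged 25.1 CPM in CBE+GZ-667161, 29.3 CPM in CBE and 2.44 CPM in PBS brains. Ube2l6, which passes it on, averaged 26.2 CPM in CBE+GZ-667161, 43.5 CPM in CBE and 9.66 CPM in PBS brains. Every CBE+GZ-667161 sample of Ube2l6 lay below every CBE sample, with a log2 fold change of -0.71 ± 0.28 between them (SE, edgeR adjusted p = 0.216). Uba7, its activating enzyme, averaged 22.6 CPM in CBE+GZ-667161 and 5.28 CPM in PBS brains. Between CBE+GZ-667161 and CBE none of the class I, interferon and ISG15 genes was called by edgeR with all samples in the fit. Of them 4, 1 and 1 had an unadjusted p under 0.05, beside 16.5% of all tested genes. Among the uncalled were Irf7 (log2 fold change -0.47 ± 0.24 SE, edgeR adjusted p = 0.337) and Isg15 (log2 fold change -0.068 ± 0.28 SE, edgeR adjusted p = 0.933).

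**Figure D4:**
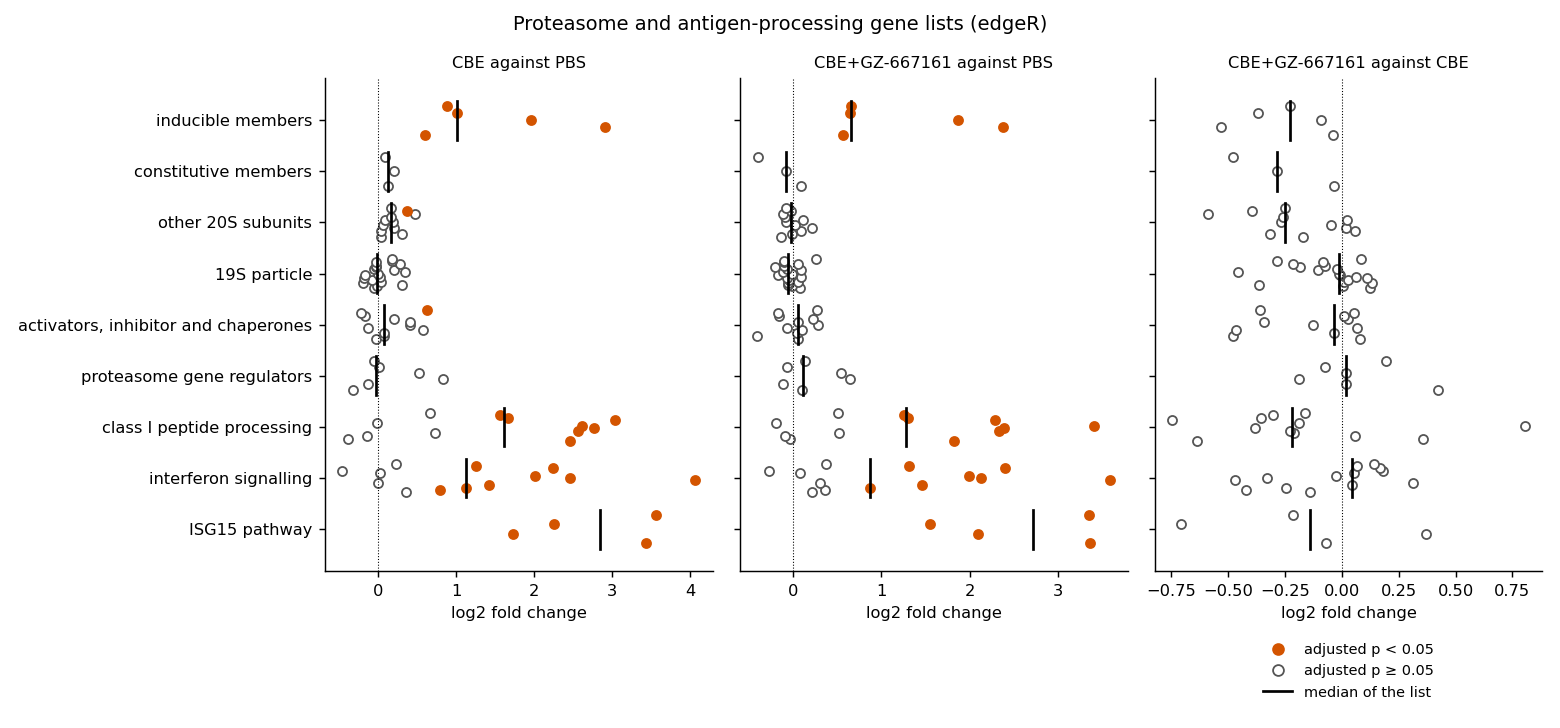
The log2 fold change (horizontal axis, whose range differs between panels) of each tested gene in the lists named on the vertical axis, from edgeR, with the list median as a bar. Filled points have an adjusted p under 0.05. In both comparisons with PBS filled points lie among the inducible genes and the class I, interferon and ISG15 lists, with Psmb3 and Psmg4 filled in addition for CBE against PBS.

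Markers of T and NK cells, which are sources of interferon gamma, were measured for 6 of the 9 genes listed. Cd3e, Cd3g, Ncr1 and Ifng itself were not among the usable genes, so their levels are not known here. The sum over the 6 was 5.91 to 32.1 CPM in CBE+GZ-667161, 10.2 to 30.8 CPM in CBE and 1.68 to 12.8 CPM in PBS brains, with Cd3d at 0 in all CBE samples. Cd4 alone ranged from 0 to 24.0 CPM, 0.555 to 27.2 CPM and 0.529 to 8.94 CPM in the same order. Monocyte, neutrophil and border macrophage markers summed to 11.6 to 27.6 CPM in CBE+GZ-667161, 7.70 to 13.5 CPM in CBE and 5.23 to 21.5 CPM in PBS brains. Neuron markers summed to 2636 to 3450.0 CPM in CBE+GZ-667161, 2209.5 to 3280.0 CPM in CBE and 3124 to 3523 CPM in PBS brains. Of 5 neuron markers 2 were called lower in CBE against PBS and 1 higher in CBE+GZ-667161 against CBE. Of 4 endothelial markers 1 was called lower in CBE against PBS and 1 higher in CBE+GZ-667161 against CBE. Of all 12623 tested genes 510 were called lower in the first of these comparisons and 56 higher in the second. None of 4 oligodendrocyte markers was called in any of the 3 comparisons. Choroid plexus markers summed to 19.2 to 336 CPM in CBE+GZ-667161, 56.3 to 527 CPM in CBE and 13.2 to 109 CPM in PBS brains, and neither of the 2 tested was called. The part of these cell types in the results was not tested. Xist, a transcript of female cells, was at 0.419 to 25.7 CPM in CBE+GZ-667161, 0 to 0.555 CPM in CBE and 0.213 to 18.3 CPM in PBS brains, so the groups were not balanced in it. With Xist as a covariate the 5 inducible genes were still called in both comparisons with PBS. As every CBE sample was low in Xist, sex and treatment are hard to tell apart in CBE+GZ-667161 against CBE.

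The genes whose log2 CPM followed that of Psmb8 most closely over the 12 samples were Arl11 (Pearson r = 0.992), H2-K1 (r = 0.989) and Pld4 (r = 0.987). For Psmb10 they were H2-Q6 (r = 0.968), Ifi204 (r = 0.963) and Ly86 (r = 0.961). For Psmb5 they were Myl6 (r = 0.825), Ube2e1 (r = 0.823) and Rad17 (r = 0.822). The 12 samples share their groups and libraries, so these values describe likeness of pattern. Arl11 averaged 6.17 CPM in CBE+GZ-667161, 10.8 CPM in CBE and 0.882 CPM in PBS brains, and Ly86 averaged 261 CPM in CBE+GZ-667161, 308 CPM in CBE and 66.3 CPM in PBS brains.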

How the data were processed

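The assay was a bulk adaptation of MARS-seq on 12 brain homogenates, per the labels' protocols. The deposited counts per gene symbol were whole numbers, not normalized by the authors. The build was mm10 and the tools named were HTSeq, HISAT 0.1.6, DESeq2 and cutadapt, per the submitters' processing notes. Use of strand and of molecular identifiers in counting: not given in the sources used here. Without identifiers, counts include PCR copies. The authors' deposited table gives log2 fold changes and p-values with adjusted p-values, and was used for the sentences that name it. The normalized signal table was not used here.

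Of 16505 rows, 23 carried a date in place of a symbol (0.266% to 0.347% of a library) and were left out. Low genes were removed by filterByExpr (count of at least 10, total of at least 15), and the rest were tested with edgeR 4.0.16 (TMM, glmQLFit, glmQLFTest) in one fit of 3 groups, and of 4 groups (13372 genes) for the ages. Alternatives used limma-voom (limma 3.58.1), DESeq2 1.42.0 and other scaling, filters and samples. For log2 CPM in the search for like genes a prior count of 2 was added. R 4.3.3 and Python 3.11.15 were used, and steps were tested on simulated data.

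The 8 genes and the lists were chosen with earlier results of these data known. The text names these 8 in each comparison, and from each list up to 3 passing genes of smallest p, or the most abundant where none passed. Nek6, Psme2b and Tap1 were added for their position or sequence. Like genes were the 3 with the highest Pearson r. Counts of replicates differed by more than sampling noise (chi-square over its degrees of freedom between 3.52 and 13.7). A gene that the rule for named genes would also have named is not reported here.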

Additional observations from a re-analysis of the deposited data

How the results depend on the processing

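All 5 inducible genes were called in CBE against PBS under each of 21 alternatives. In CBE+GZ-667161 against PBS all 5, or all but Psme1, were called under each of 19. No paired design was evident: 1 of 10 pairs of samples with the same replicate number had a correlation of deviations over 0.1, and 3 of 12 samples correlated best with their own number. With a replicate block the calls on the 8 genes did not change.

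The count of all genes called lower in CBE+GZ-667161 against CBE, 105, was 296 with DESeq2, which also called 1 constitutive gene (Psmb7), 22 with only those groups in the fit, 50 with a replicate block, 37 with Xist as a covariate, 363 without the CBE samples of day 34 and 2 without those of day 40. Leaving out single libraries gave 3 to 164. For day 40 against day 34, the count of 52 was 133 with DESeq2, 9 with limma-voom, and 0 to 63 with single libraries left out. The log2 ratio of Psmb9 to Psmb6 in CBE against PBS, 1.69, was 1.27 without day 34 and 2.10 without day 40.

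Several uncalled log2 fold changes near 0 changed sign. In CBE+GZ-667161 against CBE they were Psmb9 (0.28 with Xist, 0.30 without day 34, and -0.27 to 0.13 with single libraries left out), Psmb10 (0.099, 0.048, and -0.12 to 0.066), Psmb5 (0.10 with Xist, and -0.20 to 0.045), Pomp (-0.066 without day 40, and -0.012 to 0.18), Nfe2l1 (-0.018 with Xist, -0.039 without day 34, and -0.052 to 0.052) and Isg15 (0.073 with limma-voom, 0.16 with Xist, 0.62 without day 34, and -0.32 to 0.28). With single libraries left out, CBE+GZ-667161 against PBS gave -0.054 to 0.17 for Psmb5 and -0.018 to 0.11 for Pomp. Day 40 against day 34 gave -0.11 to 0.11 for Psmb5 and -0.070 to 0.068 for Psmb7, and 0.0081 and 0.0057 with no filter on low counts. The cause was not tested. With 4 samples a group, and 12 to 87 counts a sample for Psmb9, differences of moderate size may be missed.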

Other observations

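Within groups, after each group's mean was taken off, the 12 samples were compared for shared variation among the 8 genes. Pearson r was 0.860 for Psmb9 with Psmb10 and 0.710 for Psmb6 with Psmb7. Psmb7 also had 0.614 with Psmb9 and 0.614 with Psmb10, while Psmb5 had -0.547 with Psmb6. For Psmb8 the value was 0.324 with Psmb9, 0.323 with Psmb10, 0.564 with Psme1 and 0.568 with Psme2. For Psme2 with Psmb5 it was -0.738. The CBE mean was taken over samples of day 34 and day 40 together, so differences between these ages remain in the values. These points also share libraries and depth, and the values are a description of 28 pairs over 12 samples.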
